A study of Mus musculus with 8 samples.

Results

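A set of 39 genes that are read mainly in leukocytes, among them the 3 chains of complement C1q, was followed in cultured mouse astrocytes. The members were chosen by gene symbol from the table of the whole series, and all 39 were found among its 23401 genes. Of these, 38 stood under the listed symbol, and Spi1 stood under its older symbol Sfpi1. Mouse astrocytes had been kept either conventionally (CV, described as hard) or in MGS (described as soft), letters that the labels leave unexplained, and their RNA was sequenced. The 4 groups, MGS and CV at day 5 and MGS and CV at day 32, held 2 libraries each and 8 together. The question of the design is what sets astrocytes in MGS apart from those of the conventional method. The labels give no strain, age, genotype or other agent, and they do not say whether the 2 libraries of a group came from separate cultures. The p-values below therefore measure the spread between libraries, which may be technical.

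C1q is the recognition part of the first complement complex, and each of its molecules is built from C1qa, C1qb and C1qc chains with a collagen-like stalk and a globular head. In brain tissue these chains are made chiefly by microglia and other macrophages, and not by astrocytes. The remaining members are genes of the hematopoietic lineage: the transcription factor PU.1 (Spi1) and its partners, the receptor for colony-stimulating factor 1, Fc receptors, the beta2 integrin, lysosomal and phagosomal proteins, the phagocyte NADPH oxidase, and the actin regulators of motile leukocytes. Primary astrocyte cultures are widely known to carry some microglia. In RNA from a whole culture, fewer cells of a type and less RNA per cell cannot be told apart.

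The levels are TPM, the abundance of a gene per transcript length, set so that each library has the same sum. TPM keeps no record of depth. The aligned sequence, recovered from the abundance files, was 2.15 to 4.69 gigabases per library, with the CV libraries the shallower ones, and 12912 to 14441 genes reached 1 TPM. Replicates correlated across genes with r from 0.9799 in CV at day 32 to 0.996 in MGS at day 5. The SD of the log2 difference between replicates was 0.465 in CV at day 32, 0.321 in CV at day 5, and 0.191 and 0.197 in MGS at day 5 and day 32. CV at day 32 was thus the noisiest group. Astrocyte markers were present in every library, and the summed TPM of 14 of them was 18200 and 18400 in MGS at day 5, 3750 and 3990 in CV at day 5, 15200 in each MGS library at day 32, and 1530 and 1980 in CV at day 32.

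The leukocyte and C1q genes stood higher in MGS than in CV at day 5 and lower at day 32: between the days they rose steeply in conventional culture, with smaller changes in MGS. Summed over the 39 genes, the level was 1408 and 1433 TPM in MGS at day 5 and 134.3 and 128.7 TPM in CV at day 5. At day 32 it was 1873 and 1836 TPM in MGS and 20510 and 22130 TPM in CV. In percent of all TPM, the set thus held 0.187 and 0.184 in MGS at day 32, and 2.05 and 2.21 in CV at the same day. The ratio of the summed means was 10.8 for MGS over CV at day 5 and 11.5 for CV over MGS at day 32. From day 5 to day 32 the sum was 162 times as high in CV and 1.31 times as high in MGS. The astrocyte marker sums above moved with the culture as well, and their part in these ratios was not tested.

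Each gene was tested with limma on log2(TPM + 1), and a gene was called at a Benjamini-Hochberg adjusted p under 0.05 over the 14904 genes tested. Differences are given on that log2 scale, which understates the change of genes with low levels. All 39 members passed the filter of at least 1 TPM in at least 2 libraries, and all reached 1 TPM in each of the 4 libraries of day 32. In CV at day 5 only 14 and 15 of them did so, and 4 and 7 members were listed at 0.

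At day 5, 37 of the 39 members were called higher in MGS and 0 lower, beside 22.5% of all genes called higher and 26.4% called lower. The median difference of the members was 2.26 and that of all genes tested was -0.142. At day 32, 38 members were called lower in MGS and 0 higher, beside 14.8% of all genes called lower and 52.8% called higher. The median difference of the members was -2.91, with a range from -6.60 to -0.93, against 0.558 for all genes tested. The 2 comparisons share no library, but all groups were fitted together, so both rest on the same estimate of each gene's spread. The split of all calls at day 32 depended on the scaling: 78% of them were higher in MGS on TPM as deposited, 50.1% when libraries were scaled by the median of ratios, 47.1% when they were quantile normalized, 61.3% on FPKM and 46.5% when each library was corrected for the length and GC content of transcripts. Under those 4 alternatives the members called lower at day 32 numbered 38, 39, 38 and 39, and none was called higher.

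**Figure D1:**
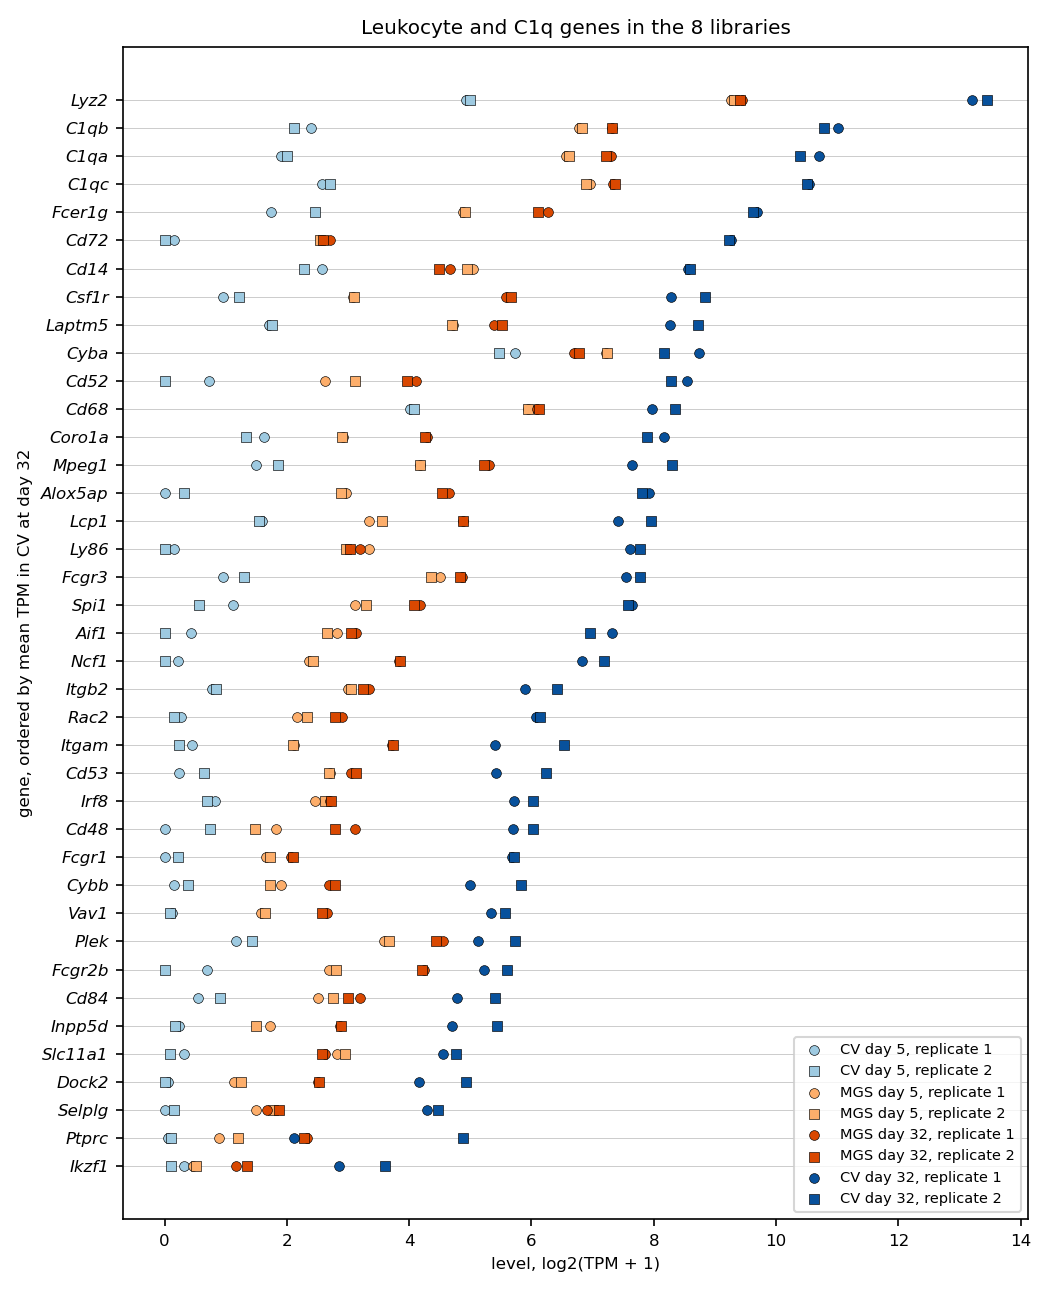
Level of each of the 39 genes, as log2(TPM + 1) on the horizontal axis, in the 8 libraries, with genes ordered by their mean in CV at day 32 and the replicates of a group drawn as circles and squares. The CV day 32 points lie to the right and the CV day 5 points to the left, with both MGS groups between them for most genes, and the replicates of CV at day 32 separate for Ptprc (3.33 and 28.5 TPM).

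Over time, all 39 members were called higher at day 32 than at day 5 in CV, beside 16% of all genes called higher and 37.7% called lower. The median rise was 5.90, with a range of 2.85 to 9.18, against -0.307 for all genes. In MGS, 23 members were called higher and 1 lower, beside 35% of all genes called higher and 7.53% called lower. The median change there was 0.75, with a range of -0.48 to 2.53, and that of all genes was 0.365. The difference of these changes was tested as the interaction of culture and day: 38 members were called lower and 0 higher, beside 12.3% of all genes called lower and 49.7% called higher. The comparisons within a culture use the same libraries as those between the cultures, so their calls are not independent of them.

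**Figure D2:**
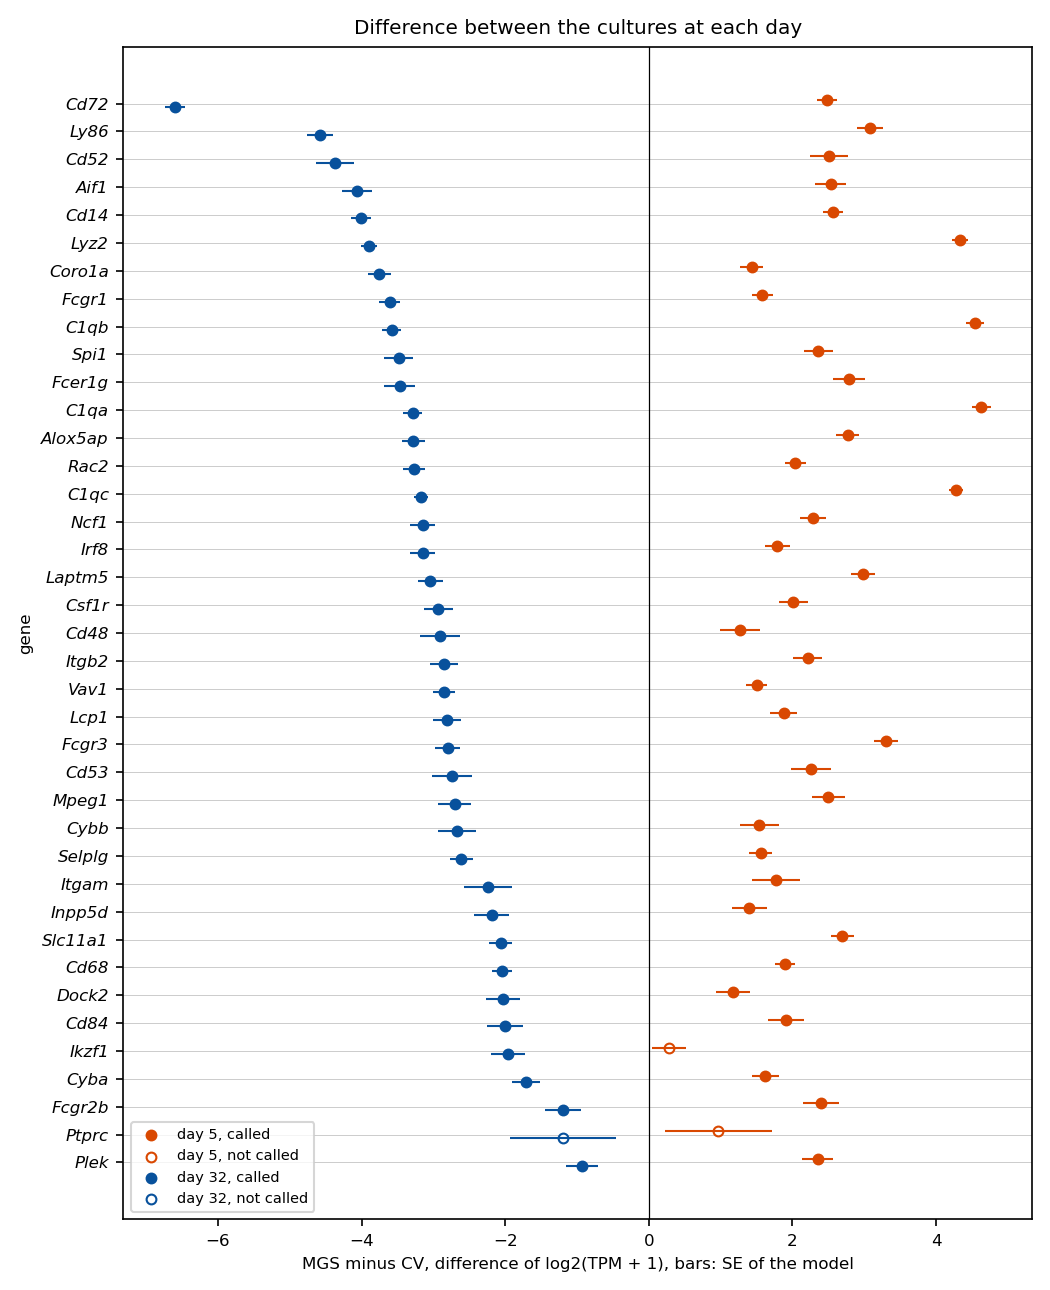
MGS minus CV for each of the 39 genes, as the difference of log2(TPM + 1), at day 5 and at day 32, with bars for the SE of the model and open circles for genes not called. At day 5 the points lie between 0.28 and 4.63 and at day 32 between -6.60 and -0.93, with Ikzf1 and Ptprc open at day 5 and Ptprc open at day 32.

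The 3 C1q chains, which assemble in equal numbers, lie in tandem on the minus strand of chromosome 4, between 136880145 and 136898844 in the files' mm10 coordinates. C1qa stood at 93.6 and 97.4 TPM in MGS at day 5, 2.76 and 3.03 in CV at day 5, 157 and 148 in MGS at day 32, and 1670 and 1340 in CV at day 32. C1qb stood at 109 and 112, 4.25 and 3.35, 158 and 158, and 2060 and 1760 TPM in the same order. C1qc stood at 123 and 118, 4.95 and 5.56, 161 and 164, and 1480 and 1450 TPM. The groups did not overlap for any of the 3 chains at either day. With 2 libraries against 2, an exact permutation test gives such a separation no p below 0.333. The share of all genes without overlap was not counted. On log2(TPM + 1), the chains and Lyz2 had the 4 largest day 5 differences of the 39 members, with 4.63 ± 0.13 (SE) for C1qa, 4.54 ± 0.13 for C1qb and 4.28 ± 0.10 for C1qc. That order depended on the processing: over the alternatives Ly86 reached 5.79, Alox5ap 5.17 and Cd72 5.11, where C1qa reached 5.0 at most. At day 32 the differences were -3.29 ± 0.13, -3.58 ± 0.13 and -3.17 ± 0.10, and the means were 9.88, 12.1 and 9.02 times as high in CV.

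C1q circulates bound to the proteases C1r and C1s, and the genes of its partners did not share its difference between the cultures at day 32. From a list of the C1 proteases and the next components of the classical pathway, 6 of 7 genes in the files were tested. All 6 were called higher in MGS at both days, beside 22.5% of all genes at day 5 and 52.8% at day 32. The 6 were C1ra, C1s, C2, C3, C4b and the C1 inhibitor gene Serping1. The other 5 were called higher at day 32 under each of the 4 other scalings too, while C1ra lost its call, with values of 0.03 by median-of-ratios, 0 by quantile normalization, 0.18 with the correction for length and GC content and 0.26 on FPKM. C4b, which C1s cleaves, had 302 and 316 TPM in MGS and 17.4 and 24.5 TPM in CV at day 32, a difference of 3.84 where C1qb had -3.58. C3 had 256 and 266 TPM in MGS and 38.5 and 55.5 TPM in CV at the same day, a difference of 2.47. C1ra differed least, by 0.64, with 31.5 and 29.9 TPM in MGS and 16.9 and 22 TPM in CV. Over time in CV, the 6 genes moved in the direction of the C1q chains, by less. All 6 were called higher at day 32 there (median 1.58, against 8.59 for the chains), beside 16% of all genes. In the interaction all 6 were called lower (median -1.94, against -7.92), beside 12.3% of all genes. Within MGS 0 of the 6 were called. The summed level of the C1q chains over that of C1ra and C1s was 1.25 and 1.15 in CV at day 5, 3.98 and 4.24 in MGS at day 5, 6.66 and 6.84 in MGS at day 32, and 227 and 143 in CV at day 32. The 4 groups did not overlap in this ratio, and CV at day 32 stood far above the others.

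**Figure D3:**
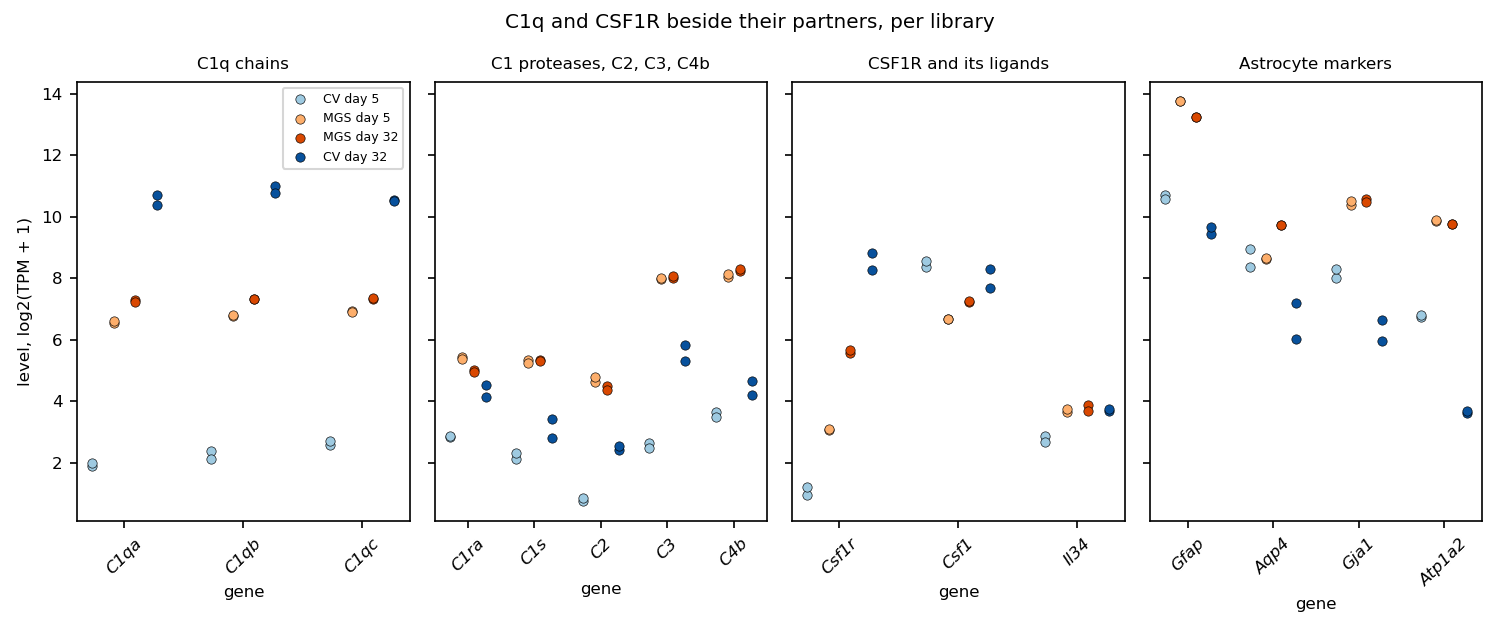
Levels of the C1q chains, of the C1 proteases with C2, C3 and C4b, of Csf1r with its ligands, and of 4 astrocyte markers, as log2(TPM + 1) for each library, with colours for the 4 groups. The C1q chains are highest in CV at day 32, while the proteases, C2, C3, C4b and the astrocyte markers are higher in MGS at that day, as for C4b with 302 and 316 TPM against 17.4 and 24.5 TPM.

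Of the lineage transcription factors, Spi1 encodes PU.1, Irf8 encodes a factor that binds DNA together with PU.1, and Ikzf1 encodes Ikaros. Spi1 was listed at 7.62 and 8.85 TPM in MGS at day 5, 1.17 and 0.474 in CV at day 5, 17.2 and 16.0 in MGS at day 32, and 199 and 190 in CV at day 32. Irf8 had 4.50 and 5.19, 0.766 and 0.616, 5.56 and 5.59, and 51.7 and 64.1 TPM in that order. Both were called in MGS against CV at each day, with differences of 2.36 ± 0.20 and 1.79 ± 0.17 at day 5 and of -3.48 ± 0.20 and -3.15 ± 0.17 at day 32. Ikzf1 was the lowest member at day 32, with 1.26 and 1.56 TPM in MGS and 6.24 and 11.2 TPM in CV, a difference of -1.96 ± 0.24. At day 5 Ikzf1 was under 1 TPM in all 4 libraries, at 0.381 and 0.432 in MGS and 0.243 and 0.0809 in CV, and its difference of 0.28 ± 0.24 was not called (adjusted p = 0.355 by limma). It was called at day 5 after the correction for length and GC content, at 0.64 (adjusted p = 0.0169 by limma), while over all its alternatives that p ran from 0.0169 to 0.695.

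Among 12 other myeloid transcription factors, 11 were tested, and at day 32 6 were called lower and 2 higher in MGS, or 6 and 0 after median-of-ratios scaling or quantile normalization. Among those called lower at that day were Irf5 (-3.37), Cebpa (-1.64) and Runx3 (-1.54). At day 5, 6 of the 11 were called higher and 0 lower, with Irf5 at 1.54. On TPM, 22.5% and 26.4% of all genes were called higher and lower at day 5, and 52.8% and 14.8% at day 32.

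PU.1 binds purine-rich DNA around the letters GGAA. RefSeq promoter windows of 300 bases around a transcript start, most of each upstream of it, in GRCm38.p6 were on hand for 30 of the 39 members, in 36 windows. The letters GAGGAAGT, searched on both strands, occurred in 5 of the 36 windows (13.9%), each of a different gene, and in 3.2% of all 32851 windows. The shorter GAGGAA, which GAGGAAGT contains, occurred on either strand in 19 of the 36 windows (52.8%) and in 28.3% of all windows. A match is a run of letters and not a shown binding site. The genes of the 5 windows with GAGGAAGT differed at day 32 by -2.19 (Inpp5d) to -6.60 (Cd72), and members whose windows lack these letters were lower in MGS too. Whether the letters bear on the levels was not tested. The 5 windows are printed because they hold the letters. Each reads 5′ to 3′ on the strand of its gene, with the match in capitals, as GAGGAAGT or as its reverse complement ACTTCCTC.
C1qc (chr4:136892865-136893164, minus strand): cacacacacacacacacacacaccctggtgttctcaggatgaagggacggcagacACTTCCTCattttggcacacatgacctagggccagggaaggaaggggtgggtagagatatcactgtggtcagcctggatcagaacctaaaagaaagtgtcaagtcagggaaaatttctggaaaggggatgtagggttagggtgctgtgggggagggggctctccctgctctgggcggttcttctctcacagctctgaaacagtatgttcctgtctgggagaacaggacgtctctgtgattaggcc
Cd72 (chr4:43454577-43454876, minus strand): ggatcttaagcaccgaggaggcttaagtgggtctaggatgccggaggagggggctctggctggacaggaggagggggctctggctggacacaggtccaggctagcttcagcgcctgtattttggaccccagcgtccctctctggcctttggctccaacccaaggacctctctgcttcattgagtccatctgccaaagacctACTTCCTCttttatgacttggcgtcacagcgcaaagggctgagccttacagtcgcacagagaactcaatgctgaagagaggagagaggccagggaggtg
Cd53 (chr3:106790100-106790399, minus strand): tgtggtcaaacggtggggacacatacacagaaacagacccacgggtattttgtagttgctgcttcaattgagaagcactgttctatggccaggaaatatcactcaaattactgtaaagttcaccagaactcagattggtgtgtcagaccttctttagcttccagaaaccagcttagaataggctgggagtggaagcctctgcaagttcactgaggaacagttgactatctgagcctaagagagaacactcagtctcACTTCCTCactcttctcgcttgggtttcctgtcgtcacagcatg
Inpp5d (chr1:87620062-87620361, plus strand): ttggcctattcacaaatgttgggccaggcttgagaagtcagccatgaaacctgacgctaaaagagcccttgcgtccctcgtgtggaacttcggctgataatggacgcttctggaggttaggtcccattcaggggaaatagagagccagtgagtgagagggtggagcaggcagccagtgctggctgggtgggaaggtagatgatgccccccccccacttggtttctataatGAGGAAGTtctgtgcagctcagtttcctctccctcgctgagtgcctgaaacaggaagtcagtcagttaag
Vav1 (chr17:57278850-57279149, plus strand): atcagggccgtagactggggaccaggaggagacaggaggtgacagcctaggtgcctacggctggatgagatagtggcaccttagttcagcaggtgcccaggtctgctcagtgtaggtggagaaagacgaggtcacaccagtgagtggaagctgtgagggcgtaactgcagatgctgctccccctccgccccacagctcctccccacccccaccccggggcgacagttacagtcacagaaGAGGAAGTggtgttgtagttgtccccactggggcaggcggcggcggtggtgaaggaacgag
Relative to the annotated start, the match begins 195 bases upstream in C1qc, 49 in Cd72, 20 in Inpp5d and 11 in Vav1, and at the base 7 of the transcript in Cd53.

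Csf1r, the receptor through which colony-stimulating factor 1 and interleukin-34 keep microglia and macrophages alive, had the largest rise of all members within MGS. Its level was 7.49 and 7.53 TPM in MGS at day 5, 0.930 and 1.32 in CV at day 5, 47.1 and 49.6 in MGS at day 32, and 309 and 455 in CV at day 32. Within MGS it rose by 2.53, where the median of the members was 0.75. Its difference between the cultures was 2.01 ± 0.20 at day 5 and -2.93 ± 0.20 at day 32. The ligand gene Csf1 ran the other way at day 5, with 102 and 101 TPM in MGS and 332 and 381 TPM in CV, a difference of -1.80. At day 32 Csf1 had 149 and 152 TPM in MGS and 205 and 312 TPM in CV, a difference of -0.74 whose call was lost without MGS day 32 replicate 1 (-0.73). Il34, the other ligand, was called higher in MGS at day 5 (0.92) and was not called at day 32 (0.06), although it was called lower there after median-of-ratios scaling (-0.53) or quantile normalization (-0.82). Its day 32 levels were 13.9 and 11.8 TPM in MGS and 12 and 12.6 TPM in CV. Of the 10 ligands and signals for myeloid cells on this list, 8 were tested. At day 5, 2 of them were called higher and 2 lower in MGS, and at day 32, 1 higher and 3 lower, including Cx3cl1 (-1.39) and Tgfb1 (-1.09). After median-of-ratios scaling 7 were called lower and 0 higher at day 32. On TPM, 22.5% and 26.4% of all genes were called higher and lower at day 5, and 52.8% and 14.8% at day 32.

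The phosphatases Ptprc (CD45) and Inpp5d (SHIP1) restrain or set the threshold of leukocyte receptor signals. Ptprc was the member whose replicates disagreed most. It had 0.859 and 1.31 TPM in MGS at day 5, 0.0392 and 0.0751 in CV at day 5, 4.03 and 3.88 in MGS at day 32, and 3.33 and 28.5 in CV at day 32. In CV at day 32 replicate 1 thus lay below both MGS libraries and replicate 2 far above them. Ptprc was not called in MGS against CV at day 5 (0.97 ± 0.74, adjusted p = 0.307 by limma) or at day 32 (-1.19 ± 0.74, adjusted p = 0.186), nor in the interaction (-2.16, adjusted p = 0.106). Without CV day 32 replicate 1 its day 32 difference was -2.58 and was called (adjusted p = 2.36e-05), and without replicate 2 it was 0.19 and was not. Over the 19 alternatives that gave a value for day 32, the adjusted p ran from 2.36e-05 to 0.344. Inpp5d had 2.29 and 1.82 TPM in MGS at day 5, 0.174 and 0.127 in CV at day 5, 6.32 and 6.42 in MGS at day 32, and 25.1 and 42.2 in CV at day 32. It was called at both days, with differences of 1.40 ± 0.24 and -2.19 ± 0.24.

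The 4 Fc receptor genes bind the constant part of antibodies or carry the signal of those that do, and all 4 were called at both days. Of this group, Fcer1g, Fcgr2b and Fcgr3 lie with the surface protein genes Cd48 and Cd84 between 170960559 and 171890718 on chromosome 1. Fcgr1, the high-affinity IgG receptor, had the largest day 32 difference of the group, -3.61 ± 0.15, with 3.20 and 3.30 TPM in MGS and 50.3 and 51.8 TPM in CV. Its day 5 values were 2.15 and 2.29 TPM in MGS and 0 and 0.163 TPM in CV. Fcgr2b, the inhibitory IgG receptor, had the smallest, -1.19 ± 0.25, with 17.9 and 17.5 TPM in MGS and 36.5 and 47.6 TPM in CV. At day 5 Fcgr2b had 5.43 and 5.95 TPM in MGS and 0.612 and 0 TPM in CV, a difference of 2.40 ± 0.25. The day 32 call of Fcgr2b was lost with a pseudocount of 0.1, at -1.23 (adjusted p = 0.197 by limma), and its p ran from 7.24e-05 to 0.197 over the alternatives. Fcer1g, the signalling chain shared by several Fc receptors, differed by 2.79 at day 5 and -3.47 at day 32, and the activating receptor Fcgr3 by 3.30 and -2.80. Fcgr2b and Fcgr3 have near-identical extracellular exons, so the split of reads between them is uncertain. The activating to inhibitory balance read as these 2 levels was 28.3 and 27.6 TPM of Fcgr3 beside 17.9 and 17.5 TPM of Fcgr2b in MGS at day 32, and 185 and 218 beside 36.5 and 47.6 TPM in CV.

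All 8 other surface protein genes were called higher in MGS at day 5 and lower at day 32. Cd72, a C-type lectin that carries an inhibitory motif and is best known from B cells, had the largest day 32 difference of all 39 members, -6.60 ± 0.14. Its values were 4.93 and 4.84 TPM in MGS at day 5, 0.108 and 0 in CV at day 5, 5.51 and 5.03 in MGS at day 32, and 615 and 602 in CV at day 32. The mean in CV was 115 times that in MGS, and the 2 CV libraries agreed closely. Cd72 overlaps Tesk1 on the opposite strand, and Tesk1 stood at 36.4 and 38.4 TPM in MGS and 36.5 and 45.5 TPM in CV at day 32, values that differed by less than those of Cd72. Of the B cell markers, Ms4a1 and Pax5 were at 0.0679 TPM or less and Cd79b at 0.324 TPM or less in every library. Cd79a, a chain of the B cell receptor, had 1.42 and 1.44 TPM in MGS and 0.472 and 0.315 TPM in CV at day 5, and 0.452 and 0.553 TPM in MGS and 0 and 0.240 TPM in CV at day 32. Cd84, an adhesion receptor of the SLAM family, had the smallest difference of the group, -2.0 ± 0.25, with 8.19 and 7.0 TPM in MGS and 26.6 and 41.6 TPM in CV at day 32. At day 5 Cd84 had 4.69 and 5.78 TPM in MGS and 0.459 and 0.885 TPM in CV.

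Cd14, the co-receptor for bacterial lipopolysaccharide, was the 1 member called lower within MGS (-0.42, adjusted p = 0.048 by limma), from 31.9 and 30.0 TPM at day 5 to 24.3 and 21.4 TPM at day 32. That call was lost in 8 of 20 alternatives, among them each fit without 1 MGS library (-0.51 to -0.33, adjusted p from 0.117 to 0.247 by limma), and over all 20 the p ran from 0.00192 to 0.247. In CV it went from 4.98 and 3.85 TPM to 378 and 387 TPM. Ly86, the partner of the receptor RP105, had a day 32 difference of -4.58, and Cd52, a short glycosylated peptide on the cell surface, -4.37. The tetraspanin Cd53 (-2.74), the SLAM family member Cd48 (-2.91) and Selplg (-2.61), the selectin ligand PSGL-1, were close to the median of the members. Cd48 was no longer called at day 5 without MGS day 5 replicate 1 (1.10, adjusted p = 0.0669 by limma), where its difference over all libraries was 1.27, and its p ran from 0.000941 to 0.0669 over the alternatives.

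Itgam and Itgb2 encode the chains of the integrin CR3 (CD11b and CD18), a receptor for complement-coated particles. Itgam had 3.34 and 3.30 TPM in MGS at day 5, 0.359 and 0.179 in CV at day 5, 12.2 and 12.4 in MGS at day 32, and 41.3 and 91.8 in CV at day 32. Itgb2 had 7.0 and 7.24, 0.716 and 0.795, 9.18 and 8.49, and 58.3 and 84.2 TPM. Both were called at each day, with differences at day 32 of -2.24 ± 0.33 and -2.85 ± 0.20. Within MGS, Itgam rose by 1.62, while Itgb2, at 0.28, was not called.

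Lyz2, lysozyme M, was the most abundant member in 3 of the 4 groups, and in CV at day 32 it reached 9450 and 11200 TPM. Its other values were 614 and 636 TPM in MGS at day 5, 29.6 and 30.8 in CV at day 5, and 697 and 677 in MGS at day 32. The cultures thus differed by 4.33 ± 0.11 at day 5 and by -3.90 ± 0.11 at day 32, while the change within MGS, 0.14, was not called. Its near-identical copy Lyz1 was listed at 4.0 and 8.64 TPM in MGS and 162 and 165 TPM in CV at day 32, and reads of the pair may be split between them. Cd68, a glycoprotein of the macrophage lysosome, had the smallest day 32 difference of the 5 lysosome and phagosome genes, -2.05 ± 0.14, with 67.0 and 68.9 TPM in MGS and 251 and 324 TPM in CV. At day 5 Cd68 had 60.9 and 60.3 TPM in MGS and 15.2 and 16.0 TPM in CV. The other 3 were Laptm5 (-3.04), a lysosomal membrane protein, Mpeg1 (-2.70), the pore-forming perforin-2, and Slc11a1 (-2.06), the phagosomal metal transporter NRAMP1.

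The phagocyte NADPH oxidase joins a membrane pair, Cybb (gp91phox) and Cyba (p22phox), with the cytosolic Ncf1 (p47phox) and the GTPase Rac2. All 4 were called higher in MGS at day 5 and lower at day 32. Cyba, which also serves other NADPH oxidases outside leukocytes, was the most abundant member in CV at day 5. It had 148 and 149 TPM in MGS at day 5, 52.1 and 43.1 in CV at day 5, 103 and 109 in MGS at day 32, and 425 and 286 in CV at day 32. Its day 32 difference, -1.71 ± 0.19, was the smallest of the complex, and its change within MGS, -0.48, was not called (adjusted p = 0.0723 by limma). It was called lower there in 9 of 20 alternatives, among them median-of-ratios scaling (-0.91), quantile normalization (-0.68), FPKM (-0.73) and the length and GC correction (-0.32), and its p over the 20 ran from 0.000189 to 0.25. Rac2 had the largest, -3.27 ± 0.15, with 6.46 and 5.88 TPM in MGS and 66.3 and 69.5 TPM in CV, after 3.50 and 4.0 TPM and 0.200 and 0.115 TPM at day 5. Ncf1 differed by -3.15 and Cybb by -2.67. Cybb overlaps 10 predicted gene models on its own strand, so its level is uncertain. On a list of 5 other oxidase and Fc receptor genes, the cytosolic subunit Ncf4 (-3.29) and the receptor Fcgr4 (-2.20) were called lower at day 32, and Fcgrt, the neonatal Fc receptor, was called higher (0.87), except after median-of-ratios scaling (0.24, not called). At day 5, 4 of these 5 were called higher in MGS, beside 22.5% of all genes.

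The 6 genes of the leukocyte cytoskeleton and of guanine nucleotide exchange were all called at both days. Aif1 (IBA1), the actin-bundling protein used to stain microglia, had the largest day 32 difference, -4.06 ± 0.21, with 7.75 and 7.28 TPM in MGS and 159 and 124 TPM in CV. At day 5 Aif1 had 6.09 and 5.31 TPM in MGS and 0.345 and 0 TPM in CV. Plek, pleckstrin, had the smallest of all called members, -0.93 ± 0.22, with 22.6 and 20.8 TPM in MGS and 33.8 and 52.4 TPM in CV. At day 5 it had 11.1 and 11.8 TPM in MGS and 1.24 and 1.68 TPM in CV, a difference of 2.35 ± 0.22 that lies near the median of the members. The day 32 call of Plek was lost without MGS day 32 replicate 2, at -0.87 (adjusted p = 0.0587 by limma), and its p ran from 2.75e-06 to 0.0587 over the alternatives. Coro1a (coronin 1A) differed by -3.75, Vav1, a Rac exchange factor, by -2.85, Lcp1 (L-plastin) by -2.81 and Dock2, also a Rac exchange factor, by -2.03. Dock2 overlaps Fam196b on the opposite strand, which stood at 1.82 and 2.03 TPM in MGS and 0 and 0.0523 TPM in CV at day 32.

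Several of these leukocyte proteins have broadly expressed relatives. Of 10 such genes, 4 were called higher and 2 lower at day 32 in MGS than in CV (median 0.11), beside 52.8% and 14.8% of all genes, and after median-of-ratios scaling 2 were called higher and 5 lower, with a median of -0.33. At day 5 2 were called higher and 5 lower, beside 22.5% and 26.4% of all genes. Rac1 had 402 and 401 TPM in MGS and 375 and 442 TPM in CV at day 32, a difference of -0.02 that was not called on TPM but was called after median-of-ratios scaling (-0.65), after correction for length and GC content (-0.76) and on FPKM (-0.41). Rac2 stood at 0.0161 and 0.0147 of the Rac1 level in MGS at day 32 and at 0.177 and 0.157 of it in CV. Vav2 and Dock1 were called higher in MGS at day 32, by 2.19 and 1.92, where Vav1 and Dock2 were called lower. Dock2 over Dock1 was 0.117 and 0.121 in MGS and 2.57 and 2.08 in CV at that day. Of 13 other leukocyte adhesion and cytoskeleton genes, 11 were tested, and 10 were called lower and 0 higher at day 32, among them Hcls1 (-3.58), Fmnl1 (-2.59), Myo1f (-2.41) and Was (-2.38). At day 5, 7 of the 11 were called higher and 1 lower, beside 22.5% and 26.4% of all genes.

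Alox5ap encodes FLAP, the membrane protein that hands arachidonic acid to the enzyme of leukotriene synthesis. It had 6.80 and 6.42 TPM in MGS at day 5, 0 and 0.246 in CV at day 5, 24.1 and 22.1 in MGS at day 32, and 243 and 224 in CV at day 32. Its differences were 2.77 ± 0.16 at day 5 and -3.28 ± 0.16 at day 32, and it rose by 1.66 within MGS, the largest rise there after Csf1r.

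The change within MGS was small beside that in CV and differed between members in its direction. The 23 rises ran up to 2.53 in Csf1r, followed by Alox5ap (1.66), Itgam (1.62), Fcgr2b (1.49), Ncf1 (1.45) and Lcp1 (1.43). C1qa (0.67), C1qb (0.51) and C1qc (0.43) were called higher on TPM, after quantile normalization and after the length and GC correction, but not on FPKM nor after median-of-ratios scaling, where they stood at 0.24, 0.08 and 0. In all, 15 members, among them Lyz2, Cd68, Irf8, Aif1 and Cd72, were not called on TPM. All genes tested rose by a median of 0.365 in this contrast, and by -0.021 after median-of-ratios scaling, when 17 members were called higher and 4 lower. With 1 of the 4 MGS libraries left out, 10 or 11 members were called, and 9 were called in each of the 8 fits without 1 library: Alox5ap, Coro1a, Csf1r, Dock2, Fcer1g, Fcgr2b, Lcp1, Ncf1 and Vav1. Fcgr2b was lost with a pseudocount of 0.1, and the other 8 were called higher in every alternative that was run.

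The members did not move by 1 common factor, so the make-up of their summed level differed between the groups. Lyz2 made up 43.6% and 44.4% of the sum in MGS at day 5, 22.1% and 23.9% in CV at day 5, 37.2% and 36.9% in MGS at day 32, and 46.1% and 50.5% in CV at day 32. The C1q chains together held 23.1% and 22.8%, 8.90% and 9.27%, 25.4% and 25.6%, and 25.4% and 20.6% in the same order. Cyba held 38.8% and 33.5% of the sum in CV at day 5, more than Lyz2, and 2.07% and 1.29% in CV at day 32. Cd72 held 0.294% and 0.274% in MGS at day 32 and 3.0% and 2.72% in CV. Plek moved the other way, from 1.17% on average in MGS at day 32 to 0.201% in CV, as did Fcgr2b, from 0.956% to 0.197%. Without Lyz2 the sum was 9.43 times as high in CV as in MGS at day 32 and 7.85 times as high in MGS as in CV at day 5.

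**Figure D4:**
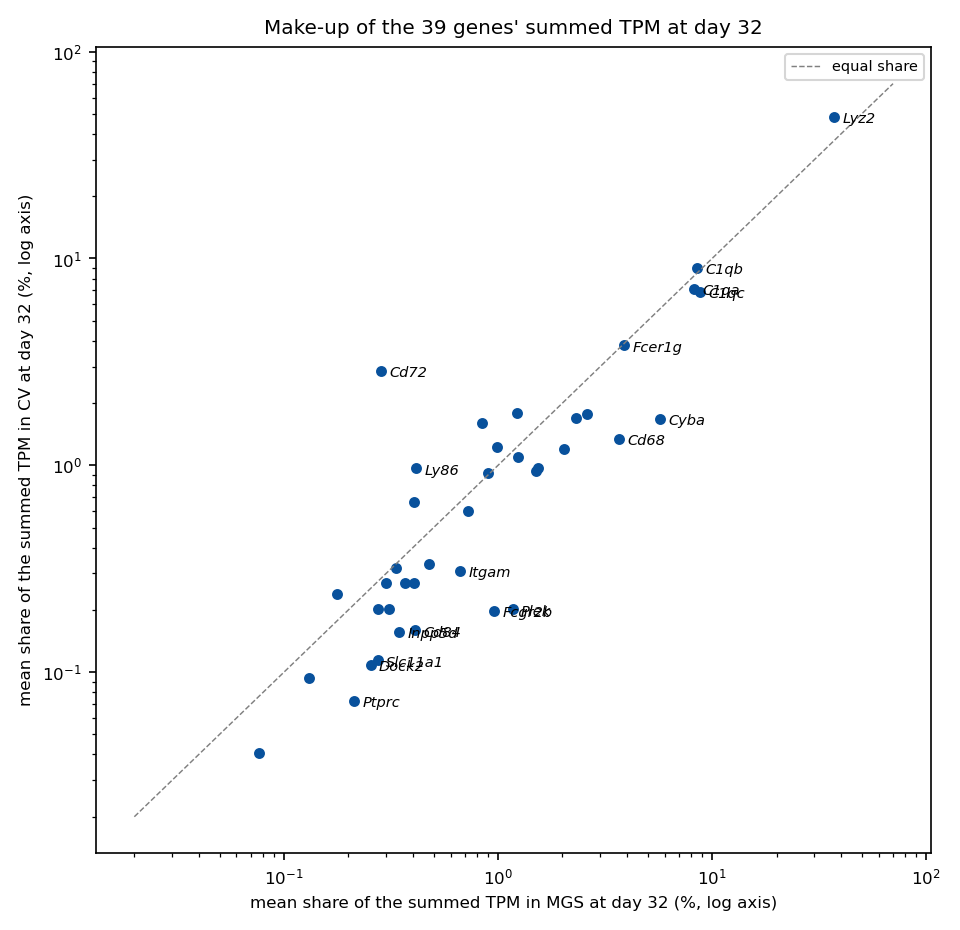
Mean share of each gene in the summed TPM of the 39 genes at day 32, in percent, MGS on the horizontal and CV on the vertical axis, both logarithmic, with a dashed line at equal shares. Cd72 lies above the line (0.284% in MGS and 2.86% in CV), and Plek (1.17% and 0.201%), Fcgr2b and Cyba lie below it.

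The 2 libraries of CV at day 32 differed by transcript length, which touches the long members. Across the 39 genes, the log2 ratio of replicate 2 over replicate 1 followed the log of the transcript length with r = 0.68 and rho = 0.81, or 0.78 and 0.80 without Ptprc. In MGS at day 32 the same relation had r = 0.28 and rho = 0.25. Across 9528 genes above 5 TPM in all 4 libraries of day 32 the values were 0.61 and 0.64 in CV and 0.07 and 0.11 in MGS. These are descriptions across genes, which share their libraries and are not independent. The 20 longer members (2600 to 6409 bases) were all higher in replicate 2, with a median ratio of 1.47, and of the 19 shorter ones (514 to 2589 bases) 8 were, with a median ratio of 0.979. Median day 32 differences between the cultures were -2.68 for the longer and -3.47 for the shorter members. Ptprc had the highest ratio, 8.56. With the correction for length and GC content, 39 members were called lower at day 32, Ptprc included (-2.16, adjusted p = 0.014 by limma). Leaving out each library of CV at day 32 gave 39 members called lower without replicate 1 and 38 without replicate 2.

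**Figure D5:**
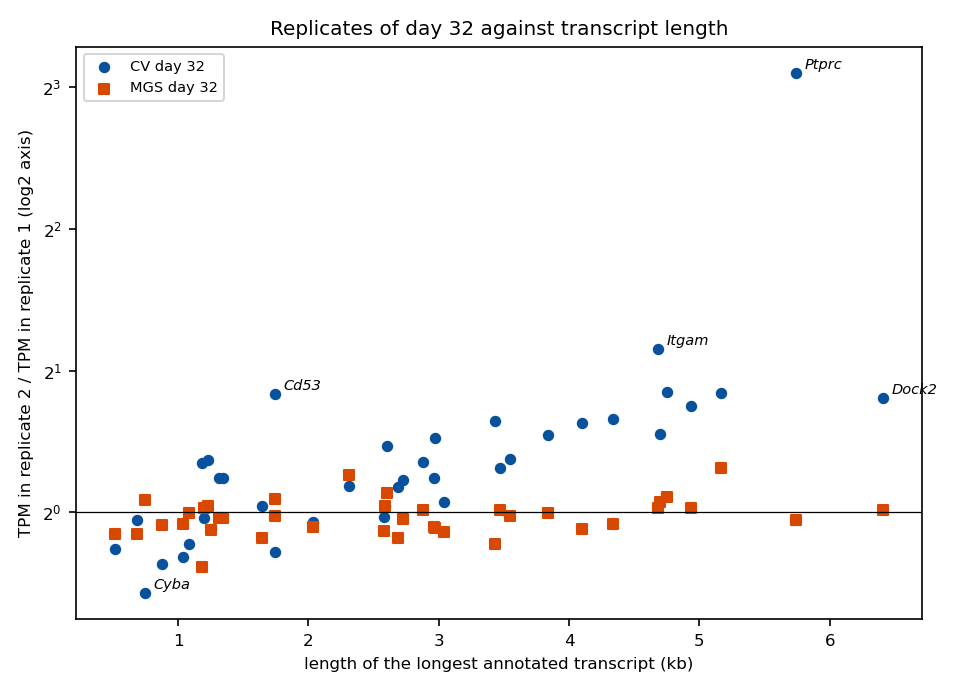
Ratio of TPM in replicate 2 to TPM in replicate 1 at day 32 (log2 axis) for each of the 39 genes against the length of its longest annotated transcript in kilobases, for CV and for MGS. The CV ratios rise with length, up to 8.56 for Ptprc, while the MGS ratios stay near 1.

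Markers of the cell types that such a culture could hold were read beside the members. Of 11 homeostatic microglia markers, 9 were tested, and at day 32 6 were called lower and 1 higher in MGS. Of all genes, 14.8% were called lower and 52.8% higher. The summed TPM of the 11 markers was 301 and 299 in MGS and 1330 and 1500 in CV at that day, and 215 and 215 in MGS and 121 and 145 in CV at day 5. Fcrls (-3.09), Cx3cr1 (-2.74), Tmem119 (-2.05) and P2ry12 (-1.15) were lower at day 32, and P2ry12 stood at only 3.86 and 3.45 TPM in MGS and 7.24 and 11.9 TPM in CV. Sall1 was higher in MGS (1.86). Siglech was listed at 0 in every library, and Slc2a5 was at 0.211 TPM or less. At day 5, 5 of the 9 were called higher and 1 lower in MGS, beside 22.5% and 26.4% of all genes, with Tmem119 the farthest apart (5.01).

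Of 9 markers of border-associated macrophages, 8 were tested at day 32: 3 were called higher in MGS and 2 lower, beside 52.8% and 14.8% of all genes, and 3 were not called, while 3 were higher and 4 lower after quantile normalization or the length and GC correction. Mrc1, the mannose receptor, had 45.9 and 46.2 TPM in MGS and 13.2 and 27.3 TPM in CV, a difference of 1.23 where C1qa had -3.29. It was not called after the length and GC correction (0.28). F13a1 (3.35) and Lyve1 (2.65) were also higher, and Ms4a7 (-3.04) and Pf4 (-0.55) were lower, the last without a call when either MGS library of day 32 was left out. At day 5, 7 of the 8 were called higher and 0 lower, beside 22.5% and 26.4% of all genes. The summed TPM of the 9 was 56.0 and 57.5 in MGS and 3.01 and 3.79 in CV at day 5, and 232 and 241 in MGS and 305 and 386 in CV at day 32. Cd163 was at 0.200 TPM or less.

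The genes that signal with these receptors followed the members at day 32. On a list of 15 genes of ITAM and Src family signalling, 14 were tested, and 12 were called lower and 0 higher in MGS. Of all genes, 14.8% were called lower and 52.8% higher at that day. Tyrobp, the adaptor DAP12, had 60.3 and 61.5 TPM in MGS and 866 and 681 TPM in CV, a difference of -3.63. Its partner Trem2 had 26.1 and 29.9 TPM and 422 and 325 TPM, a difference of -3.68, and Lat2 differed by -3.56. At day 5, 6 of the 14 were called higher and 4 lower, beside 22.5% and 26.4% of all genes. Tyrobp (3.38) and Trem2 (3.56) were higher, and the kinases Lyn (-2.25) and Syk (-1.34) were lower.

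Markers of other blood cells were mostly low, with the exception of the monocyte list. Of 14 lymphocyte markers, 2 were tested, Lck and Cd79a, both called higher in MGS at each day on TPM, but at -0.22 and -0.16 at day 32 after quantile normalization. The list summed to between 1.55 and 5.81 TPM per library, with Cd3d, Cd3g and Cd8a listed at 0 throughout. Of 13 neutrophil and mast cell markers, only Csf3r was tested (-0.69 at day 32, called lower), and the list summed to at most 2.50 TPM. The 4 erythroid markers matched summed to at most 0.250 TPM. Of the monocyte markers, Ly6c2 and Chil3 were listed at 0 in every library and Ccr2 reached at most 0.353 TPM. Plac8 had 46.3 and 44.3 TPM in MGS and 0 and 0.701 TPM in CV at day 5, where it was called higher in MGS (5.15), and 16.1 TPM in each MGS library and 1.24 and 1.0 TPM in CV at day 32. Plac8 and the matrix protein Fn1 were called higher in MGS at day 32 (3.01 and 1.05). Fn1 is not specific to monocytes, and it stood at -0.37 at day 32 after the length and GC correction. Of the 14 astrocyte markers, 13 were called higher in MGS at day 32 and 1 lower, with Gfap at 9570 and 9600 TPM in MGS and 696 and 812 TPM in CV. At day 5, 8 of the 14 were called higher and 2 lower. Of all genes, 22.5% and 26.4% were called higher and lower at day 5, and 52.8% and 14.8% at day 32. The part of the shifts of these markers in the results on the leukocyte genes was not tested.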

How the data were processed

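Sample titles gave the groups and replicate numbers. Libraries came from TRIzol total RNA and a directional NEB kit, per the labels' protocols. Reads were handled with StringTie 1.3.4d, HISAT2 2.1.0 and bcl2fastq, per the submitters' processing notes, which name both mm10 and hg38. The sources used here do not state the annotation release or the use of strand. The authors deposited TPM, FPKM and coverage per gene and library, per the file headers. TPM was tested, FPKM served as an alternative, and deposited coverage gave the aligned bases, as coverage over FPKM. Deposited coverage also gave the mean depth per base of each member. These units do not allow read counts to be recovered, so no counting interval is given. The 39 members had 1 row per library and equal values in the library files and the table of the whole series. Rows of 1 gene ID were otherwise summed, which gave 23420 IDs.

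Genes with at least 1 TPM in at least 2 libraries (14904) were fitted on log2(TPM + 1) with limma 3.58.1 in R 4.3.3, with 4 group means, 4 residual and 3.3 prior degrees of freedom, a variance trend and two-sided tests. Benjamini-Hochberg adjustment ran over all genes tested. With 2 libraries against 2, an exact permutation test cannot give a p below 0.333, so none was made. The fit was tested on simulated data. Transcript length and GC content came from GENCODE M21 (GRCm38) for 99.3% of genes tested and all 39 members. Coordinates are those of the files.

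The members and all lists were chosen with earlier results of these data known. All members are named, with every library's value for groups of 3 or fewer, for the largest and smallest day 32 difference of a group, and for members not called or of another direction. Of each list of other genes, up to 4 with large differences are named, plus Csf1, Il34, Tyrobp, Trem2, P2ry12, Mrc1 and Gfap. Picked after values were seen were Lyz1, Tesk1, Fam196b and the ratios between paralogs and within C1. The lists cover astrocyte, microglia, border-associated macrophage, monocyte, neutrophil and mast cell, lymphocyte and erythroid markers, ligands for myeloid cells, C1 proteases, ITAM signalling, other NADPH oxidase and Fc receptor genes, other myeloid transcription factors, other leukocyte cytoskeleton genes and broadly expressed paralogs. The 20 alternatives covered the pseudocount, the filter, scaling, length and GC content, the replicate block, the source table, the moderation, the groups fitted and leaving out each library. Most genes of these lists enter only the counts, and results that need certain genes are not reported here.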

Additional observations from a re-analysis of the deposited data

Results flagged for a closer look

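For 38 of the 39 members the difference between MGS and CV at day 32 departed from that at day 5, by limma's test of the interaction, with adjusted p from 6.42e-07 to 0.00144. All 38 values were negative. Of the 38, 37 were called higher in MGS at day 5 and 38 lower at day 32, and Ikzf1 was not called at day 5 (0.28, adjusted p = 0.355 by limma). Those below are the log2 difference at day 32 minus that at day 5.

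The C1q chains were C1qa (-7.92), C1qb (-8.13) and C1qc (-7.45), and Lyz2 (-8.23) and Cd72 (-9.09) had larger sizes than any of them. The order by size depended on the processing. Over the alternatives Cd72 reached -11.94, Ly86 -10.52, Lyz2 -9.06, and Aif1 and Cd52 -8.99 each, where C1qb went no further than -8.93. Of the transcription factors, Spi1 (-5.84) and Irf8 (-4.94) lay near the median of the members, -5.06, and Ikzf1 (-2.24), low at both days, was the smallest called. The receptor gene Csf1r stood at -4.94 and the phosphatase gene Inpp5d at -3.59. The Fc receptor genes were Fcer1g (-6.26), Fcgr3 (-6.10), Fcgr1 (-5.19) and Fcgr2b (-3.59). Among the other surface proteins, Ly86 (-7.65), Cd52 (-6.88) and Cd14 (-6.58) followed Cd72, and Cd53 (-5.00), Cd48 (-4.18), Selplg (-4.17) and Cd84 (-3.91) were smaller. The integrin chains were Itgb2 (-5.06) and Itgam (-4.01). The lysosome and phagosome genes beside Lyz2 were Laptm5 (-6.01), Mpeg1 (-5.20), Slc11a1 (-4.75) and Cd68 (-3.94), and the oxidase genes were Ncf1 (-5.44), Rac2 (-5.30), Cybb (-4.21) and Cyba (-3.33). The cytoskeletal and exchange factor genes were Aif1 (-6.58), Coro1a (-5.18), Lcp1 (-4.68), Vav1 (-4.35), Plek (-3.28) and Dock2 (-3.20), and Alox5ap stood at -6.05. Ptprc (-2.16) was not called (adjusted p = 0.106), with a p from 3.92e-05 to 0.218 over its alternatives.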

How the results depend on the processing

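Outside the change within MGS, 3077 values of members were compared with those under alternatives: 3056 stayed on the same side of the threshold (2 of them, without a call, changed sign), 4 lost a call, 17 gained one and 0 called values reversed, and all 21 changes were in Cd48, Fcgr2b, Ikzf1, Plek and Ptprc. Ptprc gained a day 5 call when either CV library of day 32 was left out, and an interaction call without either (-3.55 and -0.78). Within MGS, 652 of 779 values stayed on the same side (28 of them, without a call, changed sign), 86 lost a call and 36 gained one. The other 5 changed sign with a call in only 1 of the 2 fits compared. These 5 were C1qc (0) and Cd68 (-0.26) under median-of-ratios scaling and Irf8 (-0.46), Cd72 (-0.53) and Itgb2 (-0.38) under quantile normalization. Of the 2 fits compared, C1qc was called in the main fit on TPM and not under median-of-ratios scaling, and the others under the named alternative and not in the main fit. The count of members called within MGS, 24, was 10 to 29 with 1 library left out (10 or 11 without any 1 of the MGS libraries, 23 or 29 without a CV library), and 18 to 35 under the other alternatives. Without Lyz2 the ratios of summed TPM were 9.43 (CV over MGS, day 32), 7.85 (MGS over CV, day 5), 109 (day 32 over day 5, CV) and 1.47 (the same, MGS). The cause of these changes was not tested. The calls of all genes split by scaling: higher calls were 82.3% of those within MGS on TPM and 50.1% after median-of-ratios scaling, 29.8% and 50.4% within CV, and 80.1% and 47.5% in the interaction.

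Values of the other named genes, 1736 in all, were compared as an addition made after seeing the data. Of these, 1663 stayed on the same side of the threshold, 62 lost a call and 4 gained one. At day 5 Cebpa, Csf3r, Fmnl1, Lyve1, P2ry12 and Was each lost the call in a fit with a library left out. P2ry12 (0.17) and Lyve1 (0.08) also lost it under quantile normalization. The other 7 changed sign with a call in either fit, all at day 32: C1ra (0), Lck (-0.22) and Cd79a (-0.16) under quantile normalization, Il34 under quantile normalization (-0.82) and median-of-ratios scaling (-0.53), and Fn1 under the length and GC correction without and with the replicate block (-0.37 each).

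With the replicate number as a block, the counts of members called were 37, 38, 25, 39 and 38, against 37, 38, 24, 39 and 38 without it, for day 5, day 32, MGS over days, CV over days and the interaction. The deviations of same-numbered libraries correlated at 0.444 between CV at day 5 and CV at day 32. Over the rest of the 6 pairs of groups the correlation ran from -0.131 to 0.175. These values do not settle whether same-numbered libraries are related, and the main fit took them to share only a number. With the block and the length and GC correction together, 39 members were called lower at day 32. TPM gives no counting error, so the 4 and 7 members listed at 0 in the CV libraries of day 5 have no known upper limit there. Many low values of these libraries rest on little sequence. Mean depth per base was 0.055 and 0 for Dock2, 0.15 and 0 for Cd72, and 0.053 and 0.08 for Ptprc. Cyba, the most abundant member there, had 72.27 and 46.653. In the library with the least aligned sequence, CV day 32 replicate 2 (2.15 gigabases), 0 members were listed at 0.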

Other observations

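The 5 members within 930160 bases of chromosome 1 differed at day 32 by -3.47 (Fcer1g), -2.91 (Cd48), -2.80 (Fcgr3), -2.0 (Cd84) and -1.19 (Fcgr2b), while the 3 C1q genes, within 18700 bases of chromosome 4, lay between -3.58 and -3.17. Whether the members of a neighbourhood differ among themselves was not tested.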
